A study of Mus musculus with 145 samples.

Results

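Medullary thymic epithelial cells of the mouse were compared between a fraction titled MEChi and a fraction titled MEClo, the cells with high and low surface MHC class II, at 8 weeks of age. The comparison rests on 4 of the 145 arrays of the series, 2 MEChi and 2 MEClo, chosen by their titles alone. Each array holds 1 intensity for each of 24922 probe sets, and differences are given as log2 of MEChi over MEClo with the standard error. The spread was estimated in a single fit over 13 thymic epithelial arrays, which adds 1 MEChi and 2 MEClo arrays of 5 week mice, 2 arrays of Sca1+ medullary cells at 5 weeks, and at 8 weeks 2 arrays each of cortical cells titled CEChi and Sca1+ cortical cells. All 13 came from male C57BL/6 mice, and the labels give every one of them the same sort markers (EpCAM+, Ly51+, MHCII+, Sca1+, without CD45), so that only the title separates the fractions. A further 9 arrays of MEChi titled adult, from 5 week mice of mixed sex sorted as CD45-, Ly51- and MHCII high, were fitted apart, with 3 arrays each of KO GFP+, GFP+ and GFP- cells. The labels name neither the deleted gene nor the reporter. The labels do not tell whether replicate arrays came from separate animals or pools. The p-values therefore reflect only how far these arrays spread, which may be technical. Replicate arrays correlated across probe sets with r of 0.9946 for MEChi and 0.9929 for MEClo at 8 weeks, and MEChi against MEClo with r between 0.9159 and 0.9279. These correlations are across probe sets, which are not independent replicates.

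The thymic medulla removes T cells that react with the body's own proteins. Its epithelial cells display a wide range of proteins that are otherwise made only in organs such as pancreas, gut, skin or eye, and the nuclear factor Aire is needed for many of them. Cells with little MHC class II and CD80 include precursors of the Aire-expressing stage as well as cells that have passed it, and some of the cells past it resemble tuft cells, keratinised skin or other specialised epithelia.

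The titles were checked first against Aire, the factor that marks mature medullary cells. Aire had intensities of 3825 and 4339 in MEChi, against 215 and 345 in MEClo at 8 weeks, a log2 difference of 3.90 ± 0.34 (limma, Benjamini-Hochberg adjusted p = 3.8e-06). Both CEChi arrays lay lower still, at 141 and 133. Cd80, a ligand that costimulates T cells, stood at 3639 and 4300 in MEChi, against 320 and 354 in MEClo (3.56 ± 0.22). Aire and Cd80 thus followed the titles on every array. Of 14 costimulatory and coinhibitory ligands, 12 were bright enough to test, 6 were called higher and 1 lower, where 18.8% of all tested probe sets were called higher and 19.4% lower. Their median was 1.38, beside -0.06 over all tested probe sets. The values over all probe sets, 18.8%, 19.4% and -0.06, are the background for every other list at 8 weeks. The other risers were Cd86 (3.45 ± 0.16), another CD28 ligand, Icosl (3.06 ± 0.26), Cd70 (2.90 ± 0.15), Tnfsf9, the ligand of 4-1BB (2.71 ± 0.24), and Cd40 (2.35 ± 0.22), through which T cells signal back to the epithelium. Cd24a was lower (-0.64 ± 0.16), a call that was lost without MEChi replicate 1 or MEClo replicate 1, and Cd274, which encodes PD-L1, gave -0.28 ± 0.25 (adjusted p = 0.42). The promoter of Aire, as RefSeq gives it on build GRCm38.p6 (chr10:78043561-78043860, minus strand, 250 bases before to 50 after the start), is shown because Aire carries the label check. Capitals mark its only TATAAA, which begins 29 bases before the start.
Aire: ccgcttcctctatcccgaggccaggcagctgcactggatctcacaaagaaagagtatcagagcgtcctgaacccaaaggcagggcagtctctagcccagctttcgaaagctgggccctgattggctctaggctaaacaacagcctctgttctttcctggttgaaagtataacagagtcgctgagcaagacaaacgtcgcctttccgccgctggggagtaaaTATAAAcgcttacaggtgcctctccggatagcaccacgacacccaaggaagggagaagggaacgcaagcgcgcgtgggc

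**Figure D1:**
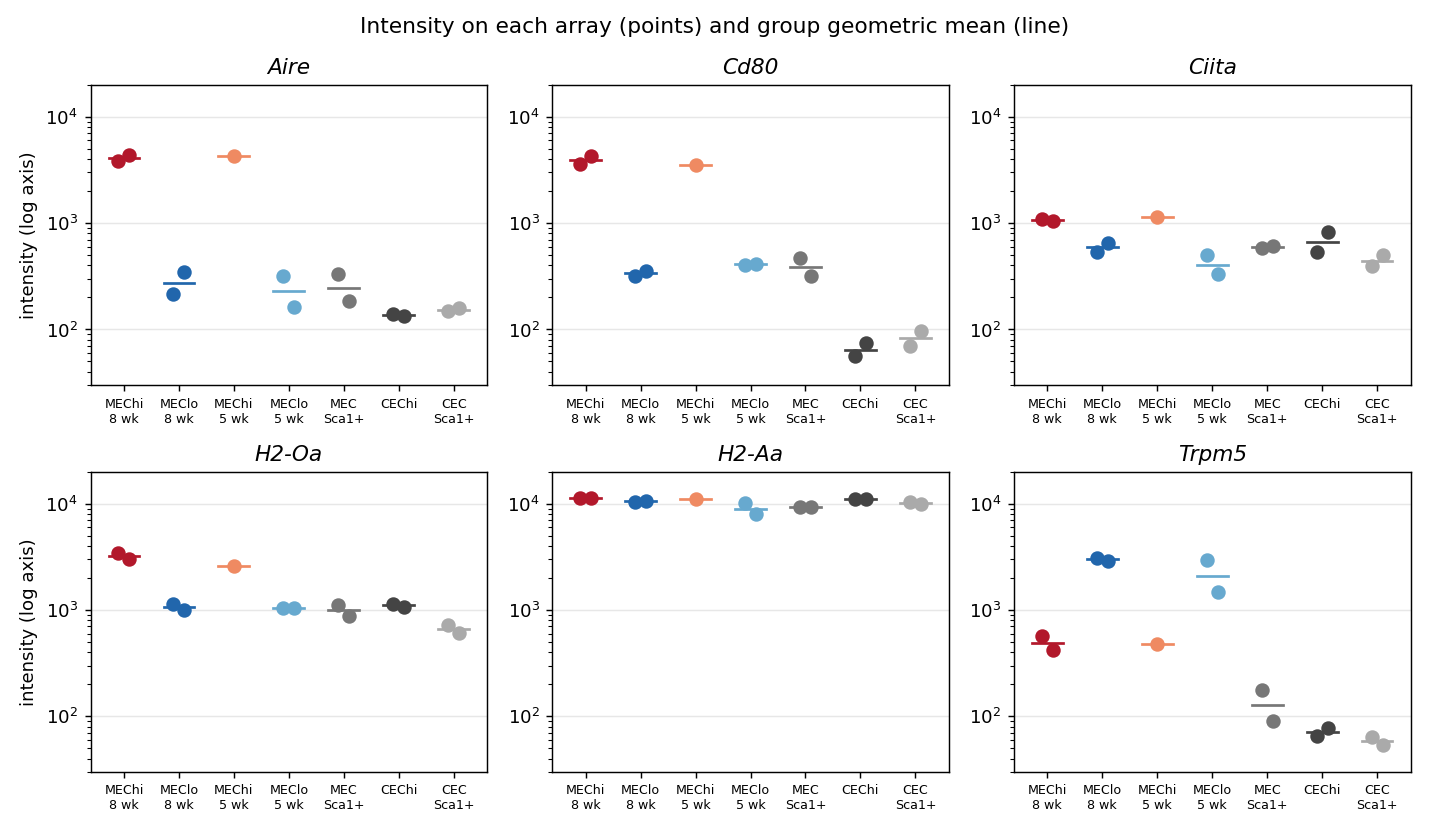
Intensities (log axis) of 6 genes on every array of the 7 thymic epithelial groups, as points, with the geometric mean of each group as a line. Aire, Cd80, Ciita and H2-Oa are higher in MEChi than in MEClo at both ages, H2-Aa lies at a like height in every group, and Trpm5 is lower in MEChi.

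In all, 15068 probe sets reached the brightness filter and 5754 were called at an adjusted p under 0.05, which is 38.2% of them. 2833 were higher and 2921 lower in MEChi, a split that was 2190 to 1723 without MEChi replicate 2. The rises were the larger changes, since 1659 rose at least 2-fold (11%) and 1053 fell at least 2-fold (6.99%). The lowest signals set a limit to the size of a change. Xist, which male cells lack, lay between 26.4 and 40.1 on the 13 male arrays, and 121 of the 1659 rises had both MEClo arrays at or below the top of that range. For these the fold is limited by the floor.

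**Figure D2:**
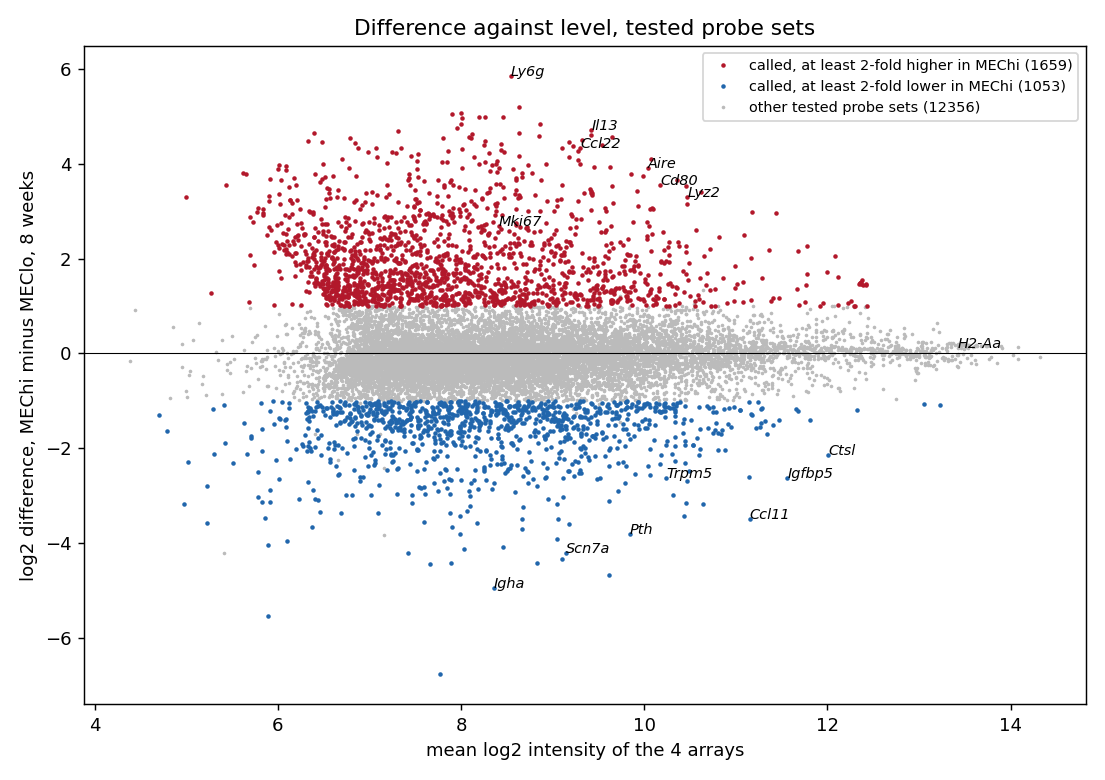
Log2 difference between MEChi and MEClo at 8 weeks (vertical axis) against the mean log2 intensity of the 4 arrays (horizontal axis), 1 point for each tested probe set. Red points, the 1659 called rises of at least 2-fold, reach farther from 0 than most of the 1053 blue ones, and H2-Aa lies near 0 at the bright end.

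MHC class II gives the fractions their names by its surface protein, and the transcripts of its main chains H2-Aa, H2-Ab1 and H2-Eb1 were not called. H2-Aa, which encodes the alpha chain of I-A, stood at 11311 and 11410 in MEChi, against 10470 and 10581 in MEClo (0.11 ± 0.14, adjusted p = 0.57). H2-Ab1 gave 0.12 ± 0.13, the invariant chain gene Cd74 0.09 ± 0.14 and H2-Eb1 0.32 ± 0.21, none of them called. H2-Aa was as bright in the cortical CEChi cells, at 10952 and 11065. The highest intensity of any probe set on the 4 MEChi and MEClo arrays lay between 19743.5 and 21120.5. Whether signals as bright as that of H2-Aa still follow the amount of RNA was not tested. A further beta chain gene did rise, H2-Eb2, which is outside the list and was named after its values were seen. H2-Eb2 stood at 6605 and 7289 in MEChi, against 1540 and 1579 in MEClo (2.15 ± 0.32, adjusted p = 0.00025), and at 1653 and 1753 in CEChi. The called genes of the pathway were others. Of 13 genes of the class II pathway with a probe set of their own, 6 were higher and 1 lower. Ciita, the master activator of these genes, stood at 1100 and 1053 in MEChi, against 534 and 657 in MEClo (0.86 ± 0.24, adjusted p = 0.014). H2-Oa and H2-Ob, the chains of the inhibitor that restrains peptide loading, rose by 1.60 ± 0.16 and 1.86 ± 0.18. The protease Ctss, which trims the invariant chain, rose by 2.20 ± 0.28, the thiol reductase Ifi30 by 1.45 ± 0.17 and the promoter-binding factor Rfx5 by 0.60 ± 0.17. Rfxap, a partner of Rfx5, was lower (-0.55 ± 0.12). Without MEChi replicate 1, MEChi replicate 2 or MEClo replicate 1 only 4 of the 6 rises were called, Ciita and Rfx5 being the lost ones. Promoters of class II genes carry a Y box, and those of a gene that was not called and one that rose are set side by side. Capitals mark CTGATTGG, which either strand of 5.39% of the promoters of all tested genes holds. It begins 51 bases before the start in H2-Aa (chr17:34287774-34288073, minus strand) and 46 bases before it in H2-Oa (chr17:34092129-34092428, plus strand), both on GRCm38.p6.
H2-Aa: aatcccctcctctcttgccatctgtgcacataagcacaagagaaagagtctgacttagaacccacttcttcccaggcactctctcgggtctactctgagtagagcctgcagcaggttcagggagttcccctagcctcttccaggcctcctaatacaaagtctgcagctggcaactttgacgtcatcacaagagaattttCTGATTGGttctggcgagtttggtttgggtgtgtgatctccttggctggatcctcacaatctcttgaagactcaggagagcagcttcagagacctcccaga
H2-Oa: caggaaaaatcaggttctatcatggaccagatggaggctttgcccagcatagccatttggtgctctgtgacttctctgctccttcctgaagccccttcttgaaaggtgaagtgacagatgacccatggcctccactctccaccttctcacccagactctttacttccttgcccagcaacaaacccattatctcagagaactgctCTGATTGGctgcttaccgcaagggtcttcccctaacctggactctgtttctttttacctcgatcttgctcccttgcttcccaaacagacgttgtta

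In the class I pathway 5 of 13 genes were higher and none lower (2 of the 5 without MEChi replicate 1 or MEClo replicate 1, 3 without MEClo replicate 2). Psme2 and Psme1, the activator caps of the immunoproteasome, rose by 1.37 ± 0.16 and 0.92 ± 0.14, while B2m, the shared light chain, gave -0.03.

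Receptors and signal carriers of the TNF family, which drive medullary maturation, were among the risers. Of 19 tested medullary regulators 11 were higher and 3 lower (median 0.84). Tnfrsf11b, the decoy receptor for RANK ligand, stood at 1533 and 1847 in MEChi, against 164 and 191 in MEClo (3.25 ± 0.21, adjusted p = 5.1e-07). Tnfrsf11a, which encodes RANK itself, rose by 0.93 ± 0.20, the adaptors Traf6 and Traf1 by 1.15 ± 0.22 and 1.69 ± 0.23, and Nfkb2, the end point of the alternative NF-kB pathway, by 0.84 ± 0.19. Sirt1, a deacetylase of Aire, had 2685 and 3056 in MEChi, against 539 and 437 in MEClo (2.56 ± 0.17). Fezf2, a transcription factor that controls tissue antigens apart from Aire, had 4350 and 4165 against 1749 and 2026 in MEClo, a smaller step (1.18 ± 0.21). Irf8 rose by 1.13 ± 0.20. The lymphotoxin receptor gene Ltbr (-0.71 ± 0.19) and the epithelial factors Ehf (-0.84 ± 0.17) and Elf3 (-1.02 ± 0.26) fell, of which only 1 was called without MEChi replicate 2 or MEClo replicate 1 and 2 without MEClo replicate 2. Spib, a brake on medullary maturation, gave -0.18 ± 0.17 and was not called. Among NF-kB targets and inhibitors 9 of 14 were higher and 2 lower (1 without MEChi replicate 2 or MEClo replicate 1). Tnf rose by 2.55 ± 0.22 and Rel by 1.25 ± 0.14. The 2 lower members were the inhibitor Tnfaip3 and Nfkbiz, with log2 differences of -1.50 ± 0.31 and -1.38 ± 0.35.

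Ligands for T cells were among the chemokines that rose. Ccl22 and Ccl17, ligands of CCR4 on maturing thymocytes, rose by 4.34 ± 0.24 and 3.80 ± 0.25. Ccl22 stood at 2899 and 2766 in MEChi, against 113 and 174 in MEClo. Ccl5 rose by 3.53 ± 0.37, Ccl9 by 2.22 ± 0.36, Ccl20 by 1.96 ± 0.19 and Xcl1, which draws dendritic cells to the medulla, by 1.63 ± 0.17. Ccl19, a CCR7 ligand of the medulla, gave 0.41 ± 0.19 and was not called (adjusted p = 0.11). The chemokines that fell were Cxcl14 (-2.11 ± 0.21), Cxcl12 (-1.63 ± 0.19) and Cx3cl1 (-1.12 ± 0.31). Of 18 tested chemokines 9 were higher and 3 lower (2 lower without MEChi replicate 2 or MEClo replicate 2, Cx3cl1 being lost), with a median of 1.01.

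Genes of cell division were higher in MEChi, as 19 of 20 tested were called and none was lower (median 1.79). Lists with no call in 1 direction at 8 weeks also had none there at an unadjusted p under 0.05. Mki67, a marker of cycling cells, stood at 824 and 908 in MEChi, against 115 and 156 in MEClo (2.69 ± 0.21, adjusted p = 2.2e-06). Bub1, a mitotic checkpoint kinase, rose by 3.20 ± 0.25 and the cyclin gene Ccna2 by 3.01 ± 0.36. The replication genes Pcna and Mcm2 moved less, by 0.51 ± 0.18 (adjusted p = 0.046, not called with any 1 of the 4 arrays left out) and by an uncalled 0.53 ± 0.22 (adjusted p = 0.084).

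Genes of other organs were among the rises. A dim gene passes the filter through its brighter group, so the counts of tested members in the lists that follow describe those members and are not read as support. With no filter 17 of 18, 16 of 21 and 17 of 20 were called higher in the first 3 lists. Of 18 milk, salivary and lacrimal genes with a probe set of their own, 12 were tested and all 12 were called higher (median 2.78). The milk casein gene Csn1s2a stood at 412 and 692 in MEChi, against 23.5 and 22.3 in MEClo (4.54 ± 0.24), and Csn2 rose by 4.46 ± 0.31. Mucl2 had 3434 and 3310 in MEChi, against 142 and 134 in MEClo (4.61 ± 0.55). Of 21 pancreas and stomach genes 15 were tested, 13 higher and none lower. Pgc, which encodes the stomach protease precursor progastricsin, stood at 1193 and 1293 in MEChi, against 77.5 and 74.6 in MEClo (4.03 ± 0.20). Ctrb1, chymotrypsinogen of the pancreas, rose by 3.99 ± 0.27, the pancreatic polypeptide gene Ppy by 3.07 ± 0.19, the stomach mucin gene Muc5ac by 2.95 ± 0.21 and the insulin gene Ins2 by 1.95 ± 0.16. Sst, which encodes somatostatin, ran against its list with 1918 and 2272 in MEChi and 3090 and 1624 in MEClo (-0.10 ± 0.33). The groups overlap for Sst.

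Of 20 enterocyte and hepatocyte genes 13 were tested, 11 higher and none lower. Apoa4, an apolipoprotein of the gut, stood at 2785 and 2647 in MEChi, against 243 and 229 in MEClo (3.53 ± 0.32). The liver genes Alb, Fgg and Serpinc1 rose by 3.01 ± 0.17, 2.84 ± 0.16 and 2.83 ± 0.16, with the MEClo values of Alb and Fgg no higher than the top of the Xist range. Of 16 tested neuroendocrine and synapse genes 11 were higher, among them Cga, the shared alpha chain of the pituitary hormones (4.31 ± 0.19), and the neuropeptide genes Gal (3.55 ± 0.19) and Npy (2.82 ± 0.15). The other 3 called genes were lower, namely the granins Chga and Chgb and the synaptic fusion gene Snap25, and with no filter 5 were lower. Chga stood at 965 and 1050 in MEChi, against 3272 and 3166 in MEClo (-1.68 ± 0.21). Cryaa, a lens crystallin, rose by 3.16 ± 0.21, Fabp9 and Zp3, of sperm and of the egg coat, by 4.65 ± 0.35 and 2.61 ± 0.14. In the muscle list 2 of 8 were higher (5 with no filter) and 1 lower, namely Myl1, a myosin light chain, at 79.7 and 70.2 in MEChi and 403 and 155 in MEClo (-1.74 ± 0.39). Of the 13 ciliated and ionocyte genes 9 were too dim to test and 1 of the other 4, Dnah5, was lower (-1.22).

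**Figure D3:**
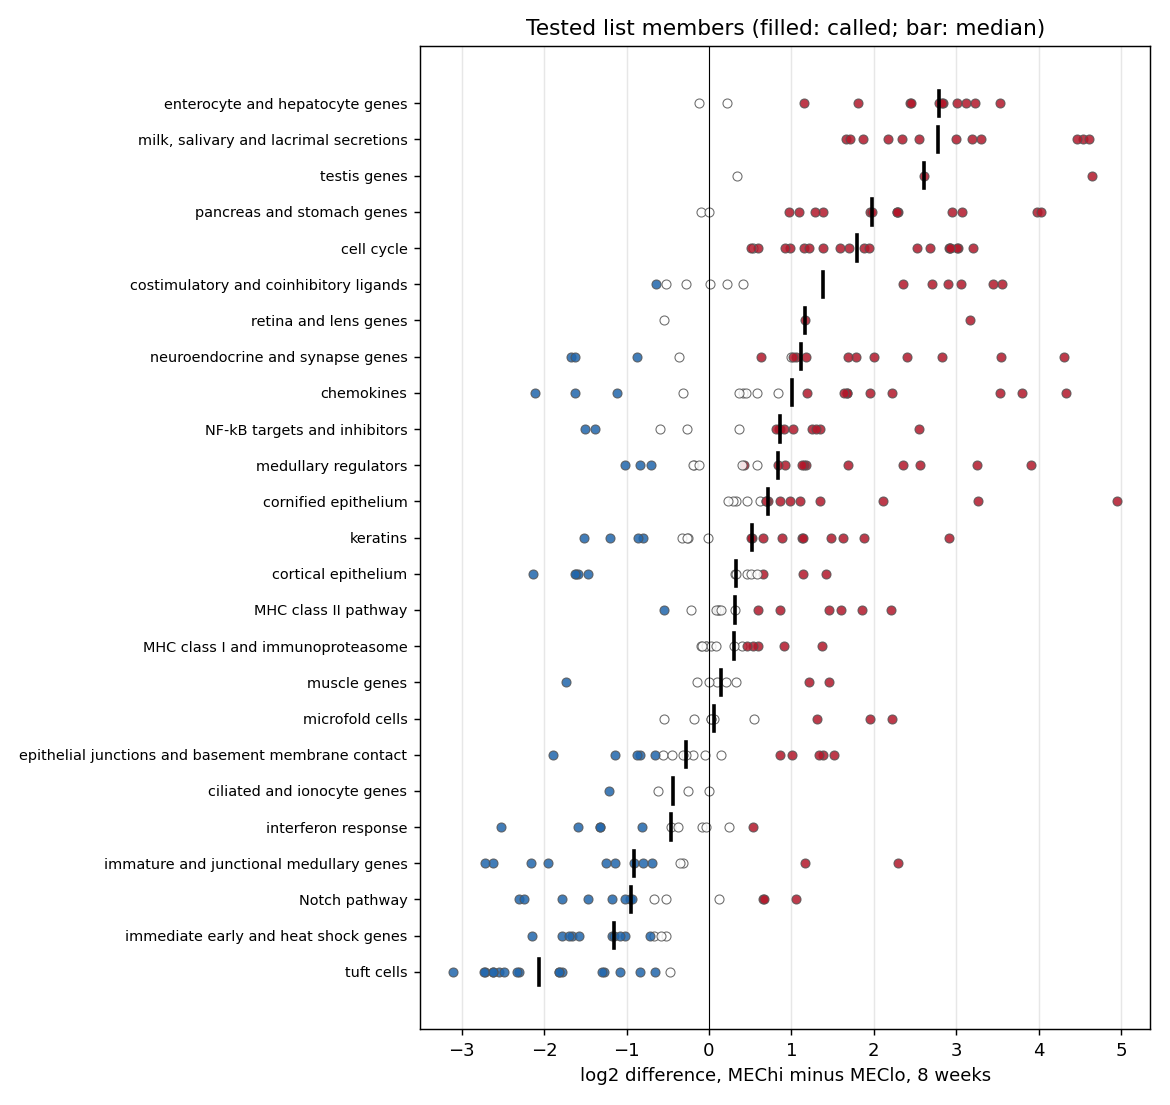
Log2 differences between MEChi and MEClo at 8 weeks of the tested members of 25 gene lists, with called members filled (red higher, blue lower), others open, and a bar at the median. The lists run from tuft cells (median -2.06) at the bottom to enterocyte and hepatocyte genes (median 2.79) at the top.

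The 12 largest rises by the naming rule were led by Ly6g, a surface protein known from neutrophils, with 2720 and 2963 in MEChi, against 49.8 and 48.5 in MEClo (5.85 ± 0.36, adjusted p = 3.5e-07). Klk1b11, a kallikrein protease, rose by 5.19 ± 0.52. Tac2, the precursor of neurokinin B, had 1343 and 1633 in MEChi, against 40.5 and 47.6 in MEClo (5.08 ± 0.21). The orphan receptor gene Gpr50 rose by 5.06 ± 0.30, Ly6a2, of the Ly6 family, by 4.99 ± 0.40, the glutathione peroxidase gene Gpx6 by 4.99 ± 0.16 and the antimicrobial peptide gene Defb3 by 4.98 ± 0.25. Serpinb12, a serpin of epithelia, had 1386 and 1492 in MEChi, against 38.3 and 56.1 in MEClo. Car1, a carbonic anhydrase, and Pla2g1b, a phospholipase of pancreatic juice, rose by 4.83 ± 0.20 and 4.83 ± 0.21. Anxa10, an annexin of the stomach, rose by 4.76 ± 0.27. Il13, a cytokine of type 2 immunity, stood at 3283 and 3730 in MEChi, against 130 and 139 in MEClo (4.70 ± 0.17, adjusted p = 2.8e-08). The naming rule takes only called genes whose MEChi and MEClo arrays do not overlap, so that separation was fixed by the choice. None of the 12 had both MEClo arrays at or below the top of the Xist range. Some MEClo values lay in or close to that range, such as 38.3 for Serpinb12, 40.5 for Tac2 and 48.5 for Ly6g. The folds of these genes may be limited by the floor too. Kallikreins and Ly6 genes are families of near-identical members, so their probe sets may read each other's transcripts.

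**Figure D4:**
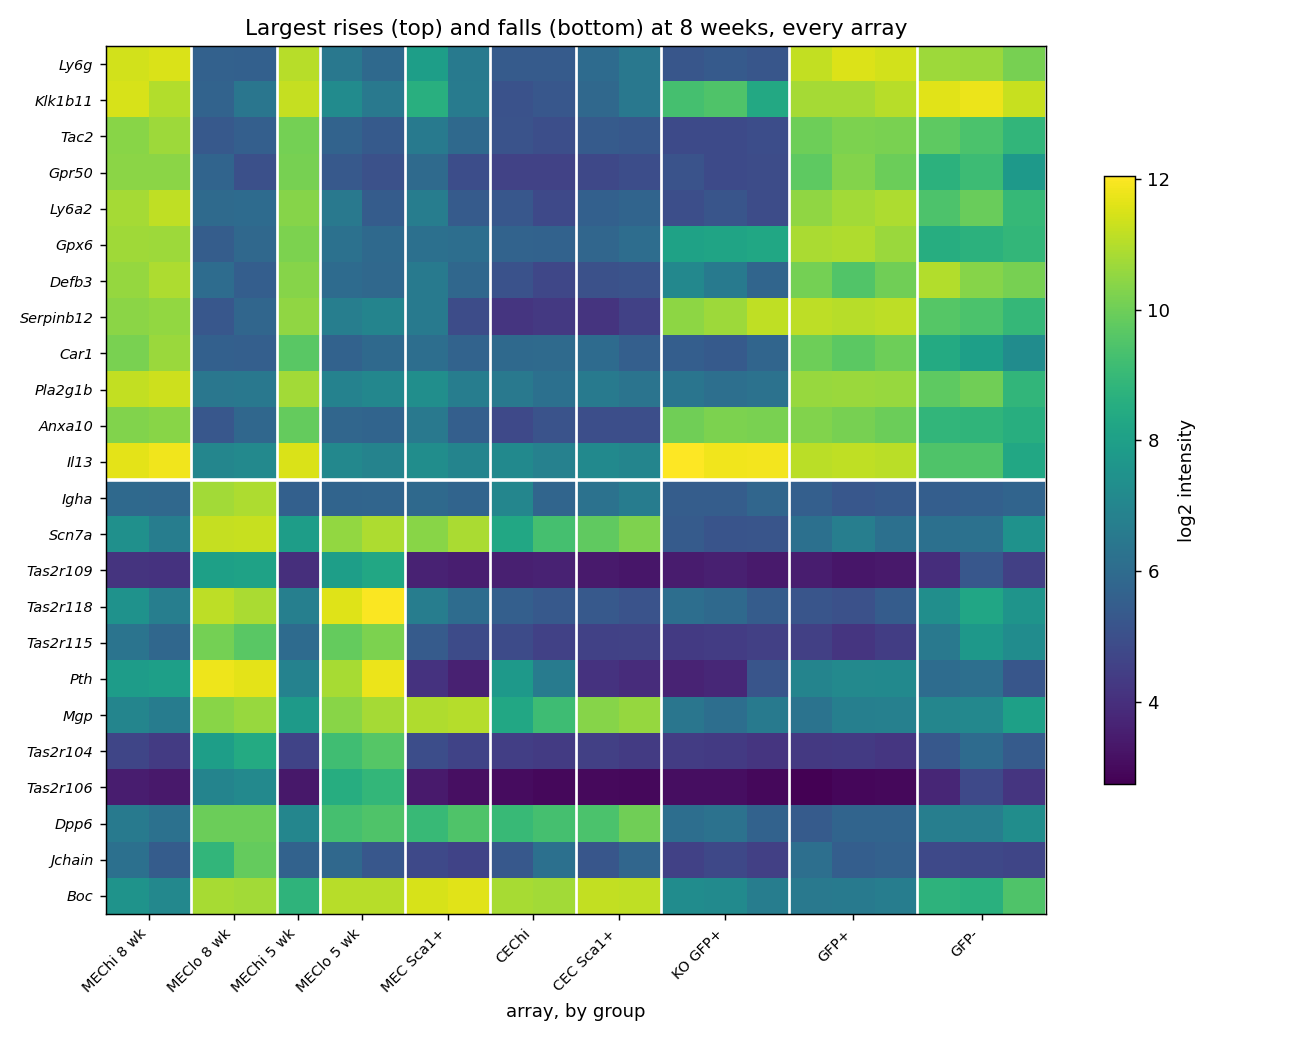
Log2 intensity (colour) of the 12 largest rises and 12 largest falls at 8 weeks, in rows, on each of 22 arrays, in columns by group. The rises are bright in MEChi at both ages and in GFP+ cells and dark in MEClo, and Igha and Jchain are bright only in the 8 week MEClo arrays.

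Genes of skin and of layered epithelia were raised in part. Of 15 tested cornified epithelium genes 9 were higher and none lower (median 0.72). Besides Serpinb12 these included Sprr1b, a cornified envelope protein (3.26 ± 0.33), Tgm3, which crosslinks that envelope (2.11 ± 0.16), and Spink5, an inhibitor of skin proteases (1.34 ± 0.22). Of 18 tested keratins 10 were higher and 4 lower. The risers included Krt20 of the gut (2.91 ± 0.14), Krt77 (1.62 ± 0.19) and Krt10 of the suprabasal skin (1.12 ± 0.24). The 4 that fell were Krt5 of basal cells, Krt7, Krt18 and Krt19. Krt5 stood at 1904 and 1340 in MEChi, against 3504 and 5962 in MEClo (-1.52 ± 0.52, adjusted p = 0.04). Without MEClo replicates 1 or 2 there were 6 called rises, without MEChi replicate 2 or MEClo replicate 2 there was 1 called fall, and without MEChi replicate 1 there were 2. The call of Krt5 was lost in all 3 of these cases and that of Krt19 without any 1 of the 4 arrays. Junction genes split evenly, with 5 of 17 higher and 5 lower. Cldn4 and Ocln, of tight junctions, rose by 1.38 ± 0.31 and 1.52 ± 0.22, while Lamb3, a laminin chain that anchors basal cells, stood at 243 and 154 in MEChi, against 681 and 759 in MEClo (-1.89 ± 0.28). Trp63, the master factor of basal epithelia, fell as well (-0.88 ± 0.15). Only 3 of the 5 falls were called without MEChi replicate 2 or MEClo replicate 2.

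Tuft cell genes were lower in MEChi. Tuft cells are chemosensory epithelial cells that use the taste signalling chain and release IL-25. Of 18 tested genes 17 were lower in MEChi and none higher (median -2.06). Among receptors and signal carriers, the taste channel gene Trpm5 stood at 567 and 418 in MEChi, against 3072 and 2910 in MEClo (-2.62 ± 0.35), the G protein gene Gnat3 at 400 and 295 against 2012 and 2546 in MEClo (-2.72 ± 0.43), and Plcb2 gave -1.82 ± 0.27. Alox5ap, an activator of leukotriene synthesis, gave -3.10 ± 0.27, and the structural marker Dclk1 -2.55 ± 0.21. Pou2f3, the transcription factor that tuft cells depend on, moved less, with 1140 and 987 in MEChi and 2049 and 1741 in MEClo (-0.83 ± 0.20, not called without MEChi replicate 2 or MEClo replicate 1). Gfi1b was the uncalled member (-0.47 ± 0.20), and Tslp, a cytokine placed in this list, was too dim to test, at 104 and 165 in MEChi and 29.5 and 29.3 in MEClo, and was called higher with no filter or without MEChi replicate 1. In these bulk samples fewer tuft cells and less of each RNA per cell cannot be told apart. The summed intensity of the list was 7377 and 6054 in MEChi, against 28034 and 24967 in MEClo, and between 1882 and 2172 in CEChi. Of 9 microfold cell genes 3 were higher and none lower. Gp2, their defining receptor, gave -0.55 ± 0.31 and was not called.

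Genes of immature and junctional medullary cells were mostly lower, 9 of 13, with 2 higher (median -0.91). Fst, which blocks activin, stood at 113 and 103 in MEChi, against 723 and 695 in MEClo (-2.72 ± 0.21). Igfbp5 gave -2.62 ± 0.18, Il7, a growth factor of thymocytes, -2.16 ± 0.21 and Pdpn, a marker of the cells at the border with the cortex, -1.96 ± 0.15. Tgfb2 was a riser here, by 2.29 ± 0.19. Of 14 Notch pathway genes 8 were lower and 3 higher (median -0.94). The ligand gene Jag2 had 251 and 184 in MEChi, against 1031 and 1089 in MEClo (-2.30 ± 0.42), and the target genes Hey1, Heyl and Hes1 gave -2.25 ± 0.24, -1.78 and -1.47 ± 0.22. Rbpj, the DNA-binding partner of Notch, was higher by 1.06 ± 0.18. Without MEChi replicate 1 or MEClo replicate 2, 1 of the 3 rises was called. Of 13 cortical epithelium genes 5 were lower and 3 higher, with a median above 0 (0.32, and 0.48 at 5 weeks). Prss16, a protease of the cortex, stood at 1078 and 753 in MEChi, against 3157 and 2313 in MEClo (-1.58 ± 0.32), far below the 12265 and 11707 of CEChi. Psmb11, the thymoproteasome subunit that defines the cortex, was low in both fractions, 121 and 102 in MEChi and 276 and 414 in MEClo, beside 2888 and 4255 in CEChi. Prss16 and Psmb11 were thus higher in MEClo, while the median of the list lay above 0. The summed intensity of the list was 20456 and 19183 in MEChi, against 24342 and 24331 in MEClo, and between 64662 and 65274 in CEChi. At 5 weeks it was 15611 in MEChi, against 10857.5 and 13237 in MEClo. The part of cortical cells in the falls was not tested.

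Immediate early and heat shock genes were lower in MEChi, 10 of 13 with none higher (median -1.15), a count that fell to 2 without MEChi replicate 2 and to 3 without MEClo replicate 1. Fos, a component of AP-1, stood at 836 and 364 in MEChi, against 2801 and 2132 in MEClo (-2.15 ± 0.36), and Atf3, a stress factor, at 2091 and 999 against 6193 and 3527 in MEClo (-1.69 ± 0.41). MEChi replicate 2 was the lower of its pair and MEClo replicate 1 the higher for both genes, and Atf3 was not called without either. Of 11 interferon response genes 5 were lower and 1 higher. Ifit3, an antiviral protein, had 293 and 239 in MEChi, against 1577 and 1468 in MEClo (-2.52 ± 0.15), and the factor Irf7 gave -1.60 ± 0.29. Usp18, a brake on interferon signals, was higher (0.54 ± 0.16), though not without MEChi replicate 1, MEChi replicate 2 or MEClo replicate 1.

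The 12 largest falls held taste receptors, a hormone and immunoglobulin transcripts. Tas2r109, Tas2r118, Tas2r115, Tas2r104 and Tas2r106 encode bitter taste receptors of a family with closely related members. Tas2r118 stood at 177 and 105 in MEChi, against 2212 and 1886 in MEClo (-3.90 ± 0.27), and the other 4 gave differences between -3.95 and -3.58. Tas2r109, Tas2r104 and Tas2r106 lay within or under the Xist range in both MEChi arrays, so their folds are limited by the floor. Pth, which encodes parathyroid hormone, had 238 and 254 in MEChi, against 3601 and 3262 in MEClo (-3.80 ± 0.35), and was bright in MEClo at 5 weeks too, at 1814 and 3539. Casr, the calcium sensor of the parathyroid, named after its values were seen, gave -0.40 ± 0.24 and was not called. The part of parathyroid cells in the Pth signal was not tested. Scn7a, of the sodium channel family, fell by 4.21 ± 0.33 on the log2 scale, Mgp, an inhibitor of calcification, by 3.69 ± 0.25, Dpp6, a partner of potassium channels, by 3.57 ± 0.22 and Boc, a hedgehog co-receptor, by 3.49 ± 0.15. Boc stood at 2887 and 3173 in the Sca1+ medullary cells. Ccl11, a chemokine for eosinophils that was named after its values were seen, stood at 887 and 519 in MEChi, against 6499 and 8820 in MEClo (-3.48 ± 0.34).

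Igha and Jchain, the heavy chain and joining chain of IgA, were bright on few arrays. Igha stood at 60.1 and 58.8 in MEChi, against 1725 and 1912 in MEClo at 8 weeks (-4.93 ± 0.30), and at 53.6 and 55.0 in MEClo at 5 weeks. Jchain had 71.5 and 44.1 in MEChi, against 472 and 931 in MEClo at 8 weeks, and 59.3 and 38.9 in MEClo at 5 weeks. Only the 2 MEClo arrays of 8 week mice were bright among the 13. Other plasma cell genes were named after their values were seen. Mzb1 was too dim to test (79.4 and 91.5 in MEChi, 115 and 132 in MEClo), Sdc1 gave -0.35 ± 0.22 and Tnfrsf17, the receptor BCMA, was higher in MEChi, with 704 and 748 against 79.4 and 96.3 in MEClo (3.05 ± 0.18). Of 4 B cell markers Cd79b was higher in MEChi (0.85, not called without MEClo replicate 2), and Cd79a, Ms4a1 and Pax5 were too dim to test. With no filter 3 of the 4 were called higher and 0 lower, and the list summed to 1064 and 1103 in MEChi, against 731 and 560 in MEClo. The part of other cells in the immunoglobulin signal was not tested.

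Markers of other cell types gave the following values. Of 12 thymocyte markers 9 were tested, 5 higher and 1 lower in MEChi (3 higher with any 1 of the 4 arrays left out). Cd3g stood at 194 and 236 in MEChi, against 34.5 and 40.9 in MEClo (2.51 ± 0.17), and at 1141 and 1126 in CEChi. Cd4 rose by 1.64 ± 0.14, whereas Ptprc, which encodes CD45, was lower in MEChi (-0.83 ± 0.18). The summed intensity of the thymocyte list was 1188 and 1262 in MEChi, against 858 and 793 in MEClo, and between 7083 and 7816 in CEChi. Of 11 markers of dendritic cells and macrophages 9 were too dim to test, and with no filter 6 of the 11 were called higher and 0 lower. Among the dim ones Adgre1, the macrophage marker F4/80, stood at 116 and 120 in MEChi, against 28.9 and 26.7 in MEClo, and Xcr1 of dendritic cells at 108 and 119 in MEChi, against 49.0 and 49.7 in MEClo. Itgax, which encodes CD11c, stood at 44.6 and 51.6 in MEChi and at 45.2 and 54.1 in MEClo. Lyz2, the lysozyme of myeloid cells, had 4404 and 4475 in MEChi, against 455 and 454 in MEClo (3.29 ± 0.43), and Flt3 rose by 1.47 ± 0.15. The list summed to 5363 and 5416 in MEChi, against 995 and 1001 in MEClo, mostly through Lyz2. The part of these cells in the rises was not tested. The thymic epithelial markers Epcam, Krt8, Foxn1 and Cdh1 did not pass the test, with differences between -0.56 and 0.46, while Krt5 and Krt18 were lower (Krt18 alone without MEChi replicate 1, MEChi replicate 2 or MEClo replicate 2). Fibroblast markers gave 1 call higher, Col1a1 (0.38 ± 0.13), and 1 lower, Postn (-0.91), of 5 tested (Col1a1 was lost with any 1 of the 4 arrays left out and Postn without MEClo replicate 1), and endothelial markers 1 higher, Cdh5 (0.92, too dim to test without MEChi replicate 2), and 1 lower, Tek (-0.59, lost without MEChi replicate 1, MEChi replicate 2 or MEClo replicate 1), of 2.

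The fractions of the same titles at 5 weeks (1 MEChi and 2 MEClo arrays) gave 3711 calls, 24.6% of the probe sets, 2095 higher and 1616 lower, with the spread of the lone MEChi array taken from the other groups. The ages share no array in these differences, but both come from a single fit. The calls at the 2 ages therefore share the brightness filter and the spread estimated for each probe set. Of the 1659 rises of at least 2-fold at 8 weeks, 1521 were called higher at 5 weeks (91.7%, against 13.9% of all probe sets) and none lower, also at an unadjusted p under 0.05. Of the 1053 falls, 790 were called lower (75%, against 10.7%) and 1 higher. Across the 15068 tested probe sets the 2 sets of differences correlated with r of 0.919. Aire stood at 4298 in MEChi, against 321 and 163 in MEClo at 5 weeks (4.23 ± 0.41), and Ly6g, Tac2, Gpr50 and Il13 rose by 4.84, 4.58, 4.94 and 4.51. Trpm5 stood at 481 in MEChi, against 2958 and 1465 in MEClo. Krt5 and Lamb3 were not called at 5 weeks, at -0.12 (adjusted p = 0.92) and -0.67 (adjusted p = 0.19). The test of the difference between the ages did not pass for either (adjusted p = 0.98 and 0.85).

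That test, the 8 week difference minus the 5 week difference, called 10 probe sets, 0.0664% of those tested, with 749 at an unadjusted p under 0.05. The difference was more negative at 8 weeks in 8 (0.0531%) and more positive in 2 (0.0133%). Of the 10, 6 carry immunoglobulin symbols and 2 carry no symbol, and these make up the 8. Igha gave -4.77 ± 0.48 (adjusted p = 0.0024) and Ighm -3.45 ± 0.36. The other two were Clec12a, a myeloid lectin receptor, which rose more at 8 weeks (1.43 ± 0.20, adjusted p = 0.029), and Tas2r106, whose fall was larger at 5 weeks (1.80 ± 0.25). Clec12a stood at 312 and 345 in MEChi at 8 weeks, 3.27 above MEClo on the log2 scale, and at 144 in MEChi, against 39.4 and 40.7 in MEClo at 5 weeks. Neither Clec12a nor Tas2r106 was called with the replicate block, with trend and robust variances, or without 8 week MEChi replicate 2, 8 week MEClo replicate 2 or 5 week MEClo replicate 2, where 0 probe sets were more positive. Without 8 week MEClo replicate 1 the count was 22, and without 8 week MEChi replicate 2 or 5 week MEClo replicate 2 it was 6.

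The genes that separate MEChi from MEClo were next read in the 9 adult MEChi arrays, which share no array with the 8 week comparison. The GFP+ arrays enter both comparisons, so values of the 2 comparisons are given side by side only. Aire itself stood at 3893, 4039 and 4387 in KO GFP+, against 3605, 5203 and 4457 in GFP+ cells (-0.09 ± 0.17, adjusted p = 0.75), and at 570, 772 and 495 in GFP- cells. Its probe set therefore did not separate KO from GFP+ cells, and it was 2.86 higher in GFP+ than in GFP- cells (adjusted p = 1.4e-06).

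KO GFP+ minus GFP+ gave 2647 calls of 13889 probe sets (19.1%), 1306 higher and 1341 lower. The split moved when single arrays were left out, with 647 higher and 1038 lower without KO GFP+ replicate 2, 769 and 1070 without GFP+ replicate 7 and 796 and 1075 without GFP+ replicate 8. With no filter 1764 were higher and 2562 lower. Of the 1585 rises of at least 2-fold that were tested in both fits, 633 were called lower in KO (39.9%, against 9.66% of all probe sets) and 232 higher (14.6%, against 9.4%). Of all 13889 probe sets 4.31% were at least 2-fold lower in KO. Of the 557 of these tested in both fits, 455 were among those rises, which is 81.7% of the KO list and 28.7% of the rises. In all 13470 probe sets were tested in both fits, 1585 of them such rises. A gene dim outside MEChi passes the filter through MEChi, so the overlap is in part set by the filter and is not read as support. Of the 749 falls tested in both, 67 were lower and 36 higher in KO (8.95% and 4.81%). Genes of other organs were among those lower in KO. All 14 tested pancreas and stomach genes, 11 of 12 milk, salivary and lacrimal genes and 10 of 13 enterocyte and hepatocyte genes were lower. These lists have 21, 18 and 20 genes on the array, and a dim gene passes this filter too through its brighter group. The counts describe the tested members and are not read as support. Ly6g stood at 37.1, 41.1 and 38.0 in KO GFP+, against 2349, 3018 and 2748 in GFP+ cells (-6.12 ± 0.15), beside 49.8 and 48.5 in MEClo at 8 weeks. Mucl2 had 58.8, 25.0 and 24.3 in KO GFP+, against 3206, 3408 and 3921 in GFP+ cells (-6.73), and Pgc 54.9, 63.4 and 68.5 against 925, 948 and 905 in GFP+ cells (-3.90 ± 0.10). Tac2, Gpr50 and Car1 gave -5.27, -5.03 and -4.34. Sst, which did not separate the fractions, was lower in KO by -3.19 ± 0.12. Among chemokines 9 of 16 were lower, with Ccl22, Ccl17, Ccl5 and Xcl1 at -2.22, -1.86, -2.00 and -2.32.

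Many rises of MEChi were not lower in KO. None of 12 costimulatory ligands was called in either direction, Cd80 standing at 3872, 3711 and 3939 in KO GFP+, against 3726, 3677 and 3707 in GFP+ cells. Limma called none of the 12, with 2 lower and 0 higher at an unadjusted p under 0.05, and the 95% interval of the Cd80 difference was -0.24 to 0.35. Of 20 medullary regulators 2 were higher, Irf8 and Traf6, and of 20 cell cycle genes 1, Bub1b. Both counts are near or under the 9.4% of all probe sets called higher in KO and are not read as a result about these lists. Within the casein genes the pattern differed from gene to gene. Csn1s1 stood at 11.9, 11.8 and 11.7 in KO GFP+, against 258, 299 and 348 in GFP+ cells (-4.67), and Csn1s2a gave -4.11, but Csn2 had 4417, 4563 and 4621 in KO GFP+, against 3734, 3842 and 4342 in GFP+ cells (0.19, adjusted p = 0.39). Anxa10 was another large rise without a difference in KO (0.00, adjusted p = 0.99), as was Serpinb12 (-0.32, adjusted p = 0.28). By the naming rule the largest MEChi rises that were higher in KO were Chrna5, a nicotinic receptor subunit, the arginase gene Arg2, Olfr1136, Hal, Crhbp, which binds corticotropin-releasing hormone, Lrat, which makes retinyl esters, the transporter gene Slc5a8 and Dpp10, a partner of potassium channels. Olfr1136, an olfactory receptor gene, stood at 719, 866 and 748 in KO GFP+, against 212, 267 and 233 in GFP+ cells (1.71 ± 0.13), and Hal, histidine ammonia lyase of skin and liver, gave 0.78. The remaining 6 lay between 0.52 and 1.14.

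**Figure D5:**
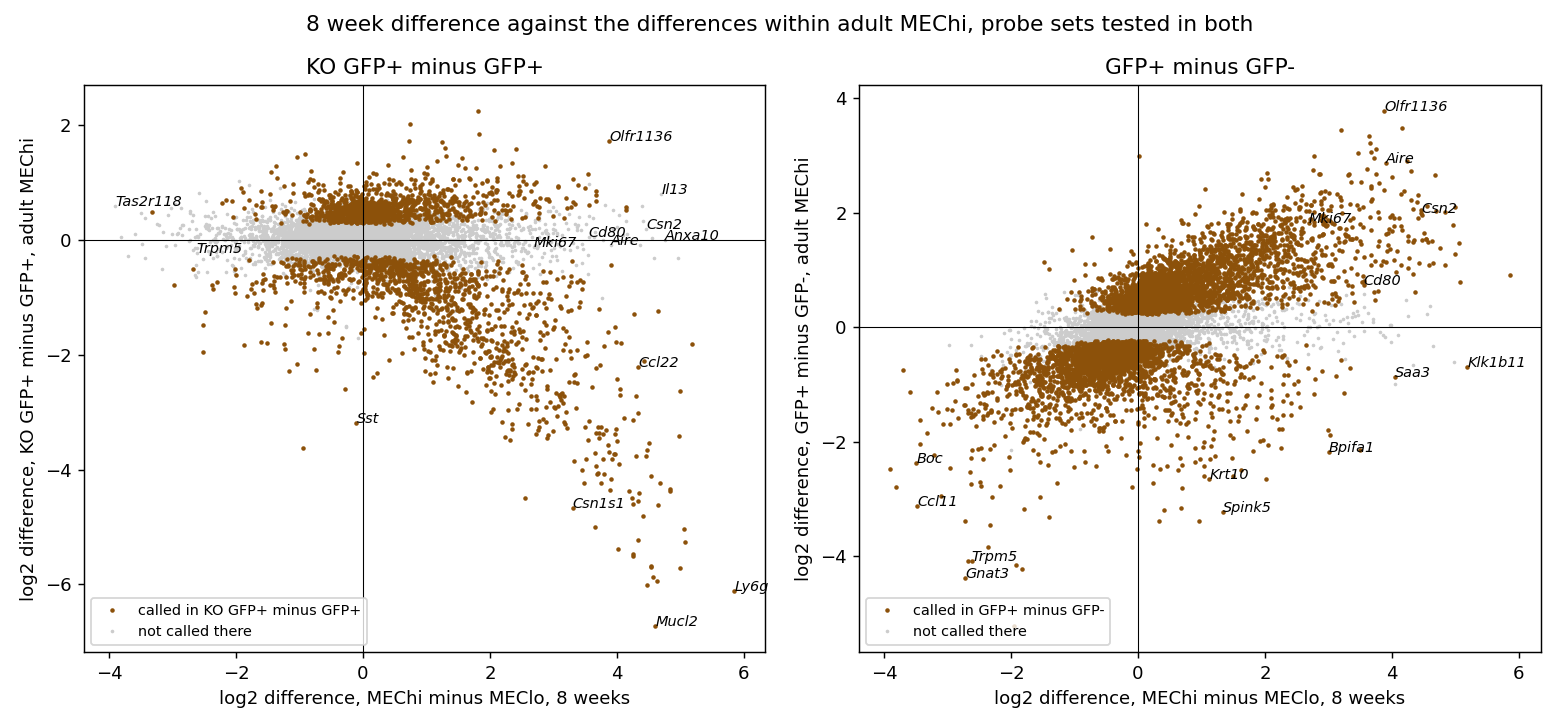
Log2 difference between MEChi and MEClo at 8 weeks (horizontal axis) against that of KO GFP+ minus GFP+ (left panel) and of GFP+ minus GFP- (right panel) in adult MEChi, for probe sets tested in both fits, with those called in the second comparison in brown. On the left Ly6g and Mucl2 lie far down at the right while Csn2, Anxa10 and Il13 do not, and on the right Trpm5 and Gnat3 lie low at the left while Spink5 and Krt10 lie low at the right.

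GFP+ minus GFP- divides the MEChi fraction itself. It gave 6865 calls (49.4%), 4012 higher (28.9%) and 2853 lower (20.5%), or 3626 and 3359 with quantile normalization. Of the 1585 MEChi rises tested in both, 1104 were higher in GFP+ (69.7%) and 150 lower (9.46%), and of the 749 falls 552 were lower (73.7%) and 7 higher. Of the 1053 falls at 8 weeks, only these 749 were bright enough to test here. As with KO, this overlap is in part set by the filter and is not read as support. All 20 tested cell cycle genes were higher in GFP+. Tuft cell genes were lower in 15 of 16, Trpm5 at 90.4, 89.5 and 97.7 in GFP+, against 1372, 1727 and 1618 in GFP- cells (-4.08 ± 0.16). Of 16 cornified genes 9 were lower in GFP+ and 2 higher, where 9 of 15 had been higher in MEChi at 8 weeks. Spink5 stood at 194, 138 and 259 in GFP+, against 1787, 1491 and 2143 in GFP- cells (-3.23 ± 0.36), and Krt10 gave -2.65 ± 0.23. Of 19 keratins 12 were lower and 3 higher. Named by rule among rises that were lower in GFP+ were Klk1b11, the acute phase gene Saa3, Klk1b16, the acute phase gene Orm2, and the secreted airway proteins Bpifb1 and Bpifa5. Saa3 had 1756, 1384 and 2004 in GFP+, against 3641, 2790 and 2923 in GFP- cells (-0.87). In the other direction, falls that were higher in GFP+ by this rule were Spock2, Sv2b, Fmo1, Oat, Ebf1 and Psat1, with differences between 0.32 and 1.14. At 8 weeks the fall of Fmo1 was not called without MEChi replicate 2 or MEClo replicate 1.

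Promoters were compared as letters only, in the first RefSeq promoter of each gene (300 bases, GRCm38.p6). The 1070 genes with a promoter in the table among those at least 2-fold higher in MEChi had a median of 7 CG dinucleotides, against 18 for 673 falls and 20 for all 9666 tested genes. Over all 27025 RefSeq promoters, of tested genes or not, the median was 7 as well, so a low CG count is not particular to the rises. Among the rises, the 419 that were lower in KO had a median of 4 and the 450 not called in KO a median of 14. TATAAA on either strand was present in 17.2% of the rises, 9.66% of the falls and 8.07% of all tested genes. It was present in 23.4% of rises that were lower in KO and in 14.2% of all 27025 promoters. On the sense strand between 45 and 10 bases before the start it was present in 7.76% of the rises, 2.53% of the falls and 2.09% of all tested genes. The share was 2.45% of all 27025 promoters. These are descriptions with no test, and a match is not a site. The following 3 show the range, with TATAAA in capitals for Il13 (chr11:53634653-53634952, minus strand), which begins 29 bases before the start as in Aire, and every CG in capitals for the others. Csn1s2a (chr5:87774200-87774499, plus strand), lower in KO, has no CG, and Jag2 (chr12:112929446-112929745, minus strand), which fell in MEChi, has 63.
Il13: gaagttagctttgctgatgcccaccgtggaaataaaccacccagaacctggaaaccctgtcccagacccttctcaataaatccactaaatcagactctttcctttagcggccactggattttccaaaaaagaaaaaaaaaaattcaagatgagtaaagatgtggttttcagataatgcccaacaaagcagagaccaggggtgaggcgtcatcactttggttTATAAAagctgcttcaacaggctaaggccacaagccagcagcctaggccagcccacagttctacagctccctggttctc
Csn1s2a: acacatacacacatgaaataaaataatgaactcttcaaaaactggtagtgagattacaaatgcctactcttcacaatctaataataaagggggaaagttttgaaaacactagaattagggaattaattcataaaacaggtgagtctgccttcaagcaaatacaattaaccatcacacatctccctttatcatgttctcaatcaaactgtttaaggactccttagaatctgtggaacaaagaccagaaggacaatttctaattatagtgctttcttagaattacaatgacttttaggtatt
Jag2: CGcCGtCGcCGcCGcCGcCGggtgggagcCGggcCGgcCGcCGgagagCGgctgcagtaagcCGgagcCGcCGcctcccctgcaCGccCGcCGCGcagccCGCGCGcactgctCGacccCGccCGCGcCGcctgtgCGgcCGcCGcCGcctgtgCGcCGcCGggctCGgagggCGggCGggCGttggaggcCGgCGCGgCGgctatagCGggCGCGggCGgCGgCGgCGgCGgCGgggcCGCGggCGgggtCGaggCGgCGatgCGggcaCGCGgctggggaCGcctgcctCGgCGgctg

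Rises also lay next to each other on the chromosomes. In the order of 12124 tested genes in RefSeq, 552 of 1381 rises of at least 2-fold (40%) had another such rise as a neighbour, against 20.6% of all tested genes. For falls the shares were 26.4% and 13.9%. There were 30 runs of at least 4 rises that were unbroken among tested genes, with untested genes between them passed over. A dim gene passes the filter through its brighter group. The shares and the run lengths are thus in part set by the filter and are not read as support. The longest run had 14 genes on chromosome 7, the kallikreins from Klk7 to Klk1b24, of which 13 were lower in KO. A run of 6 on chromosome 2 held the Bpif genes, all 6 lower in KO, and a run of 6 on chromosome 5 held Csn1s1, Csn2 and Csn1s2a. Other runs were not lower in KO, such as 6 S100 genes on chromosome 3, with 0 lower, and Ly9 with 3 Slamf genes on chromosome 1, also 0 of 4. Members of such families are similar in sequence and may share probe signal, and the part of this was not tested.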

How the data were processed

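Mouse thymic epithelial RNA was measured on Affymetrix Mouse Gene 1.0 ST arrays. The deposited values are linear intensities from Affymetrix Power Tools with RMA, per the submitters' processing notes, with no version given in the sources used here. Of 24922 probe sets, 21425 have 1 symbol in the platform annotation, 1399 several and 2098 none listed. Values were taken to log2 and fitted with limma 3.58.1 in R 4.3.3 (lmFit, eBayes), 13 and 9 arrays apart. Probe sets were tested if the brightest group's mean was at least the median intensity of the arrays fitted, 138.4 and 140.5. Calls are at a Benjamini-Hochberg adjusted p under 0.05, over all tested probe sets. The number of arrays limits the precision. A gene stands for its brightest probe set. The members and lists were chosen with earlier results of these data known. Genes named are list members, the 12 largest rises and falls, up to 5 called differences between ages in each direction, the 8 largest rises called lower and 8 called higher in KO, and 6 in each direction called oppositely in GFP+, leaving out predicted genes, small RNAs and receptor segments. GFP+ and GFP- arrays of equal number deviated together (r of 0.505, 0.45 and 0.198, the last for replicate 8), so the numbers may pair them. The GFP+ minus GFP- values given come from the fit without pairing. With the replicate number as a block 4226 were higher and 3106 lower. The steps were tested on simulated data. Filters, normalization, offset, variance options, array sets, blocks and left-out replicates were varied.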

Additional observations from a re-analysis of the deposited data

Results flagged for a closer look

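The difference between MEChi and MEClo changed with age in 10 probe sets by the test of the 8 week minus the 5 week difference (limma, adjusted p under 0.05). Igkv8-30, an immunoglobulin light chain segment, changed by -6.43 on the log2 scale, with 18.8 and 23.2 in MEChi, against 2907 and 1773 in MEClo at 8 weeks. Both Igha probe sets changed by -4.77 and -4.18, Ighm by -3.45, and 2 probe sets that carry the symbols Ighg3, Igha, Ighv1-33 and Ighv1-26 together by -4.57 and -4.29. A pair of probe sets with no symbol changed by -5.33 and -4.56. All 8 were bright on both 8 week MEClo arrays. The remaining 2 were Clec12a, at 1.43, and Tas2r106, at 1.80, whose MEChi values of 11.1 and 10.5 lay under the Xist range. Neither of these 2 was called with the replicate block, with trend and robust variances, or without 8 week MEChi replicate 2, 8 week MEClo replicate 2 or 5 week MEClo replicate 2.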

How the results depend on the processing

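A filter at the 75th percentile gave 3348 calls at 8 weeks, 2286 at 5 weeks, 4134 for GFP+ minus GFP- and 1412 for KO minus GFP+, where fewer probe sets are tested, and no filter gave 4326 for KO minus GFP+. The difference between the ages gave 21 calls with all 22 thymic epithelial arrays in the fit and 49 with all arrays of the series, and the cause was not tested. With no filter the 8 week calls were 4206 higher and 3349 lower. With quantile normalization they were 2841 and 3419, and those at 5 weeks 2159 and 2056. Leaving out 1 replicate gave 3913 to 4501 calls at 8 weeks, 3071 to 3709 at 5 weeks, 6 to 22 between the ages, 5829 to 6463 for GFP+ and 1685 to 2416 for KO. With the replicate number as a block the counts were 5863, 3806, 8 and 7332 in the same order without KO. MEChi and MEClo arrays of equal number deviated with r of -0.1, and crossing the numbers, a choice made after seeing the data, gave 5601 calls. No paired analysis was possible for KO because it shares no replicate numbers with GFP+. Of the named genes 4 turned sign with 1 array left out, none of them called. Sst ranged from -0.57 to 0.36, Epcam from -0.011 to 0.30, Krt8 from -0.081 to 0.051 and B2m from -0.11 to 0.041 over the 4 left-out arrays. Signals near those of Xist limit the folds of dim genes.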

Other observations

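Runs of rises, unbroken among tested genes, held further gene families. The 6 keratins from Krt71 to Krt4 on chromosome 15 rose by 1.49 to 2.56 and all 6 were lower in KO, as were 5 of 5 genes of the run from Rnase1 to Ear6 on chromosome 14, which holds secreted ribonucleases (1.36 to 3.36). The mast cell proteases Mcpt1, Mcpt2 and Mcpt4 with Gzmb, a granzyme of killer cells, rose by 2.05 to 4.65 and 4 of 4 were lower in KO. By contrast 0 of 4 Gbp genes on chromosome 5, guanylate-binding proteins of cell defence (1.46 to 3.34), and 0 of 4 Skint genes on chromosome 4 (2.12 to 2.79) were lower in KO. Members of these families are similar in sequence, and shared probe signal was not tested.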
